A study of Homo sapiens with 12 samples.

Results

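The transcriptional effect of HIF1A siRNA was measured in RCC4 cells by comparing the 3 libraries labelled RCC4 HIF1A siRNA with the 3 libraries labelled RCC4 control siRNA, which are 6 of the 12 RNA-seq libraries in the series. RCC4 is an established clear cell renal carcinoma (ccRCC) line that lacks functional VHL, so that both HIF-α proteins persist in oxygenated culture. Cells were reverse transfected with pools of siRNA and harvested after 48 h. The dishes for HIF1A siRNA received 1 nM HIF1A siRNA with 1 nM control siRNA, and the control dishes received 2 nM control siRNA, so that the total was 2 nM in both groups. The remaining libraries, 3 with HIF2A siRNA (1 nM, against EPAS1, with 1 nM control siRNA) and 3 with both HIF siRNAs (1 nM each, the double knockdown), were used where named. All libraries come from 1 cell line and 1 time point, with 1 siRNA pool per target, and the replicate numbers pair the dishes of the groups.

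HIF-1 is a dimer of HIF-1α and ARNT (HIF-1β) that binds hypoxia response elements, short DNA sites with the core RCGTG, and activates the genes beside them. In normal cells oxygen-dependent prolyl hydroxylases (EGLN1 to EGLN3) mark HIF-1α for VHL, which directs its destruction, and VHL loss in ccRCC removes this control. HIF-1 is best known for raising glucose uptake and glycolysis, restraining pyruvate entry into mitochondria, clearing mitochondria by mitophagy, exporting acid and secreting signals such as VEGF-A, whereas HIF-2, made with HIF-2α from EPAS1, shares some of these targets and has others.

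The targeted transcript was lower in every library with HIF1A siRNA. HIF1A stood at 120, 58.2 and 112 CPM (counts scaled to a common library size with TMM factors) in control replicates 1 to 3 and at 15, 17.8 and 22.2 CPM with HIF1A siRNA, which is 12.8, 31.2 and 20.2% of control within the pairs. Its partner ARNT did not pass the test, at 90.2 to 108% of control (edgeR adjusted p = 0.98). EPAS1 was at 62.3, 77.1 and 78.6% of control, and its log2 fold change of -0.47 (SE 0.15) did not pass either (edgeR adjusted p = 0.28). Total counts lay between 13747603 and 20159408 in the 6 libraries. The epithelial marker KRT8 (366 to 524 CPM with control siRNA) and the renal lineage factor PAX8 (197 to 267 CPM) were present. The filter on low counts was passed by 6 of 6 epithelial markers and 11 of 17 kidney lineage and tubule genes. It was also passed by 5 of 8 fibroblast and pericyte markers, 3 of 9 leukocyte markers and none of 6 endothelial markers.

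HIF1A siRNA lowered many more genes than it raised. Of 12830 genes tested, 146 were called lower (1.14% of those tested) and 4 higher (0.0312%), by edgeR's quasi-likelihood test at a Benjamini-Hochberg adjusted p under 0.05, with the replicate number as a block. At an unadjusted p under 0.05 there were 629 genes in the lower and 311 in the higher direction. The 146 genes were lower in all 3 pairs, and for 129 of them every library with HIF1A siRNA lay below every control library, which was the case for 4.22% of all genes tested. The fall was at least 1 on the log2 scale for 82 genes and at least 2 for 25. Together the 146 genes took 3.01, 2.87 and 2.63% of all counts in control replicates 1 to 3 and 1.51, 1.51 and 1.39% with HIF1A siRNA. Their median level with control siRNA was 58.0 CPM, against 29.4 CPM over all genes tested. The counts are shares of a library, so that the falls are relative to other genes, and a change in all RNA could not be seen.

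The number of calls varied with the fit, and all alternative fits shared libraries with the main one. Without the replicate block 40 genes were called lower and 1 higher, and DESeq2's test called 221 and 15. Leaving out HIF1A siRNA replicate 1, 2 or 3 gave 65, 77 or 89 genes lower, leaving out control replicate 3 gave 91, and leaving out replicate number 3 altogether gave 78. In each of 20 alternative fits the 146 genes, or those of them that passed its filter on counts, had a log2 fold change below zero, and 34 were called in all of them: HIF1A itself, AK4, ALDOC, ANKZF1, APLN, BNIP3, BNIP3L, C3orf58, C4orf3, CA9, FAM115C, FGF11, FUT11, GBE1, GPI, GPR146, GYS1, HK2, INSIG2, KCTD11, LOX, NXPH4, PDK1, PFKFB4, PGK1, PPFIA4, RIMKLA, RORA, SH3D21, SLC16A3, SPAG4, TMEM45A, WDR54 and ZNF395.

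Of the 146 genes, 63 belonged to at least 1 of 43 lists of pathways and cell types and 83 to none. The lists were written with earlier results of these data known, so that their shares are a description and not a test. The share of tested members called lower was 50% or more in 3 of these lists, the 15-gene metagene of hypoxia in tumors (8 of 14), the glycolytic enzymes after hexokinase (9 of 18) and a group of mitochondrial proteins tied to low oxygen (4 of 8). Among the other lists with at least 10 tested members the angiogenic, vasoactive and hormone factors (10 of 40), glycogen metabolism (5 of 21), pyruvate and lactate fate (4 of 21) and collagen modification (4 of 21) had the highest shares, and of the HIF subunits and the PFKFB enzymes 1 of 4 each was called. The called HIF subunit was HIF1A, the target of the siRNA itself. The called genes of the hypoxia metagene were P4HA1, TPI1, LDHA, ADM, VEGFA, ALDOA, PGAM1 and ENO1. Each of these 8 is also counted in the glycolysis, pyruvate, collagen modification or angiogenic factor list. The metagene's median log2 fold change was -0.71, against 0.00 over all genes tested. Its count of 8 was 4 without any 1 of the HIF1A siRNA libraries, 5 without control replicate 3, 3 without replicate number 3 and 0 without the block.

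**Figure D1:**
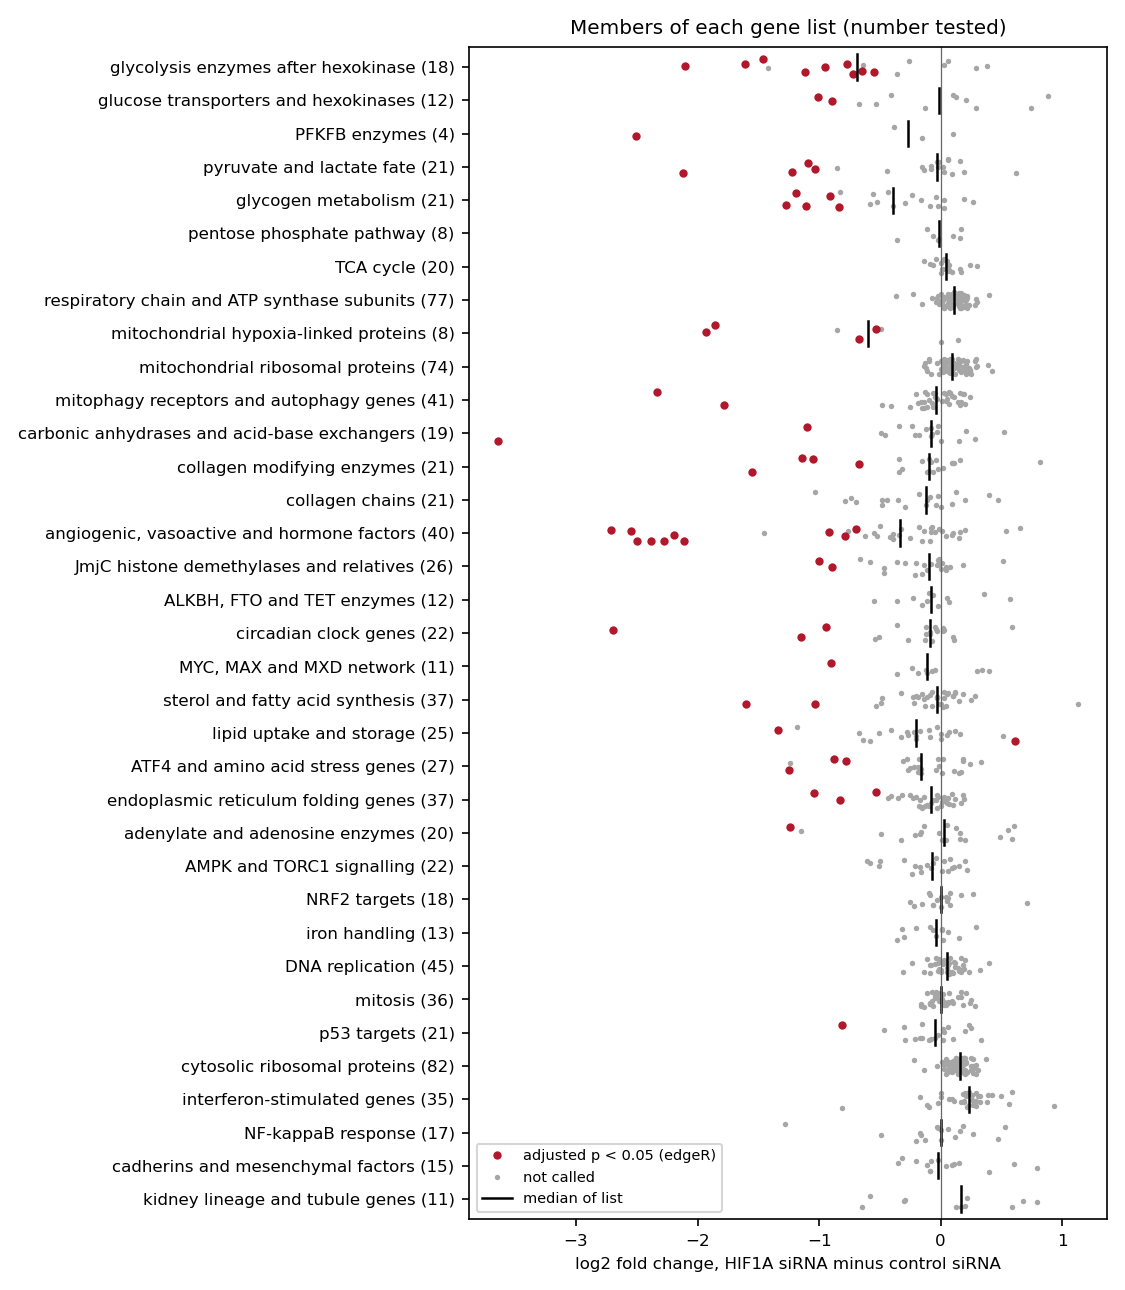
Log2 fold change of every tested member of the gene lists shown. HIF1A siRNA minus control siRNA is on the x axis, with 1 list per row and the number tested in parentheses. Red points are genes with an adjusted p under 0.05 in edgeR's test, and grey points are genes not called. The black tick is the list's median. The red points lie left of zero, except LIPC in the lipid row. Their number is largest in the glycolysis, glycogen and angiogenic factor rows. None lies in the rows for the TCA cycle, the respiratory chain or the ribosome.

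To show the DNA beside the genes that carry the result, promoters were taken from RefSeq (build GRCh38.p14, 250 bases before to 50 after each gene's start, so not the build to which the reads were aligned). They were searched for the HIF core as ACGTG or GCGTG on either strand. Where a gene had several cores before its start, ACGTG on either strand was taken before GCGTG, and then the core nearest to a start. Stretches before the start are printed for genes described in the next paragraphs, read 5′ to 3′ on the gene's strand, with each core in capitals (CACGT and CACGC are the cores read from the other strand, and CACGTG holds a core on both strands):
PGK1: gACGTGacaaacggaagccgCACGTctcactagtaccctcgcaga
TPI1: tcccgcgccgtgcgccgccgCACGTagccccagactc
ALDOC: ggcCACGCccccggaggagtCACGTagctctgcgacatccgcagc
LDHA: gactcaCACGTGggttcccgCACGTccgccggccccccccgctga
SLC16A3: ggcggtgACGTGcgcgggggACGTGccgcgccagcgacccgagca
PDK1: ctgctgcccgcCACGTccctCACGTacc
BNIP3: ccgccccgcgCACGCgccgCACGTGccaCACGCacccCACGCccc
CA9: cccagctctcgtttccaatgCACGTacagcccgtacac
P4HA1: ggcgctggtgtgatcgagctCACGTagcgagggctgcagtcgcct
PPFIA4: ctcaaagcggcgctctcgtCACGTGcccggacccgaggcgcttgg

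These stretches lie at chrX:78104045-78104089 for PGK1 and chr12:6868068-6868104 for TPI1, both on the plus strand, and at chr17:28576899-28576943 on the minus strand for ALDOC. The stretch of LDHA is at chr11:18394470-18394514, that of SLC16A3 at chr17:82228967-82229011 and that of PDK1 at chr2:172556062-172556089, all on the plus strand. BNIP3 is read from the minus strand at chr10:131982032-131982076 and CA9 from the plus strand at chr9:35673890-35673927. P4HA1 is at chr10:73096928-73096972 on the minus strand and PPFIA4 at chr1:203026353-203026397 on the plus strand. In CA9 the core ended 14 bases before the start, in TPI1 13 and in PDK1 4 bases before it. The rule for choosing a core favors ACGTG and short distances. Every printed stretch holds ACGTG on a strand, whereas called genes with only GCGTG before the start, such as ENO1, NDUFA4L2 and PFKFB4, are not printed.

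A RefSeq promoter was found for 124 of the 146 genes called lower and for 10219 of the 12830 tested. At least 1 core was present in 83.9% of the promoters of genes called lower (104 of 124), in 70.1% of those of all genes tested and in 52.4% of all 27305 genes with a promoter. ACGTG, with or without GCGTG, was present in 57.3%, 32.4% and 24.9%, respectively. GCGTG, with or without ACGTG, was present in 61.3%, 58.4% and 40.6%. With only the first listed promoter of each gene, ACGTG was in 47.6% of the genes called lower and in 26.7% of those tested. The median GC content of these promoters was 68% for the genes called lower and 65.3% for all tested, and its part in these shares was not tested. Such a match is a description of the letters and not of binding.

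**Figure D2:**
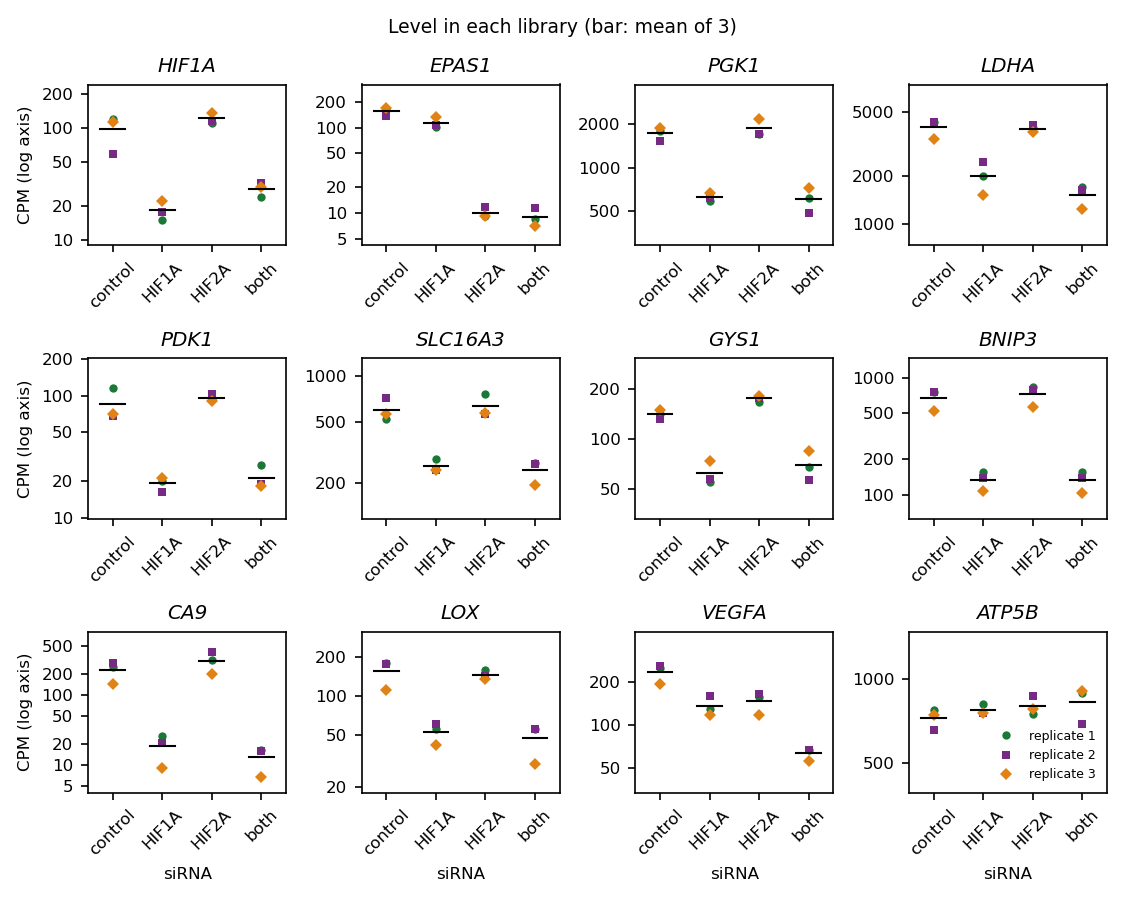
CPM of 12 genes on log axes in each of the 12 libraries, by siRNA group, with 1 symbol per replicate number and a bar at the mean of 3. The 3 libraries with HIF1A siRNA lie below the 3 control libraries for 11 of the genes, and those of ATP5B, a subunit of ATP synthase, overlap; VEGFA is also low with HIF2A siRNA.

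Of the glycolytic enzymes after hexokinase 9 of 18 tested fell. The enzymes from glucose-6-phosphate isomerase to pyruvate kinase took 2.26, 2.23 and 2.11% of counts in the control libraries and 1.57, 1.41 and 1.33% with HIF1A siRNA, without overlap, and 14 members had a log2 fold change below zero (median -0.68). Glucose uptake and phosphorylation came first. SLC2A1, the main glucose transporter of many tumor cells, was at 1536, 1576 and 1594 CPM with control siRNA and at 1215, 1165 and 1150 CPM with HIF1A siRNA. The groups were apart, but the log2 fold change of -0.41 (SE 0.10) did not pass (edgeR adjusted p = 0.087). HK2, an inducible hexokinase, fell from 136, 122 and 112 to 65.9, 64.2 and 54.3 CPM (log2 fold change -1.01, SE 0.11, edgeR adjusted p = 0.00029), and HK1 fell by 0.89 (edgeR adjusted p = 0.019). HKDC1, a further hexokinase, was at 103 to 110% of control and did not pass. The count of 2 hexokinases was 1 without any 1 of the HIF1A siRNA libraries, without control replicate 3, without replicate number 1 or 3 and without the block.

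Isoenzymes of the same step had unequal values. GPI, the glucose-6-phosphate isomerase, was at 754, 707 and 696 CPM with control siRNA and 410, 362 and 348 CPM with HIF1A siRNA (log2 fold change -0.95, SE 0.10, edgeR adjusted p = 0.00024). Of the phosphofructokinases PFKL fell by 0.72 (edgeR adjusted p = 0.031), whereas PFKP, at -0.36, and PFKM did not pass. PFKFB4, which sets fructose-2,6-bisphosphate and thereby phosphofructokinase activity, fell from 84.6, 86.3 and 70.1 to 16.3, 13.2 and 12.6 CPM (log2 fold change -2.51, SE 0.13, edgeR adjusted p = 4e-07), against -0.38 (SE 0.12, edgeR adjusted p = 0.31) for its paralog PFKFB3. Of the aldolases ALDOC was at 28.3, 19.1 and 25.5% of control and ALDOA at 70.5, 54.8 and 52.2%. Their log2 fold changes were -2.10 (SE 0.16) and -0.77 (SE 0.12), and the difference between paralogs was not tested.

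From triose phosphate onward TPI1, PGK1 and ENO2 fell most. TPI1, triose phosphate isomerase, went from 1866, 1728 and 1462 to 866, 818 and 647 CPM (log2 fold change -1.12, SE 0.12, edgeR adjusted p = 0.00025). PGK1, which makes the first ATP of the pathway, went from 1782, 1527 and 1858 to 587, 615 and 668 CPM (log2 fold change -1.46, SE 0.11, edgeR adjusted p = 1e-05). The neuronal enolase ENO2 was at 34.4, 34.5 and 29.8% of control and the common enolase ENO1 at 66.0, 75.1 and 64.8% (log2 fold changes -1.61 and -0.55). PGAM1 was at 60.2 to 67.9% of control (edgeR adjusted p = 0.01), and its near-identical copy PGAM4, at a log2 fold change of -0.77, did not pass and shares sequence with it, so that its counts are uncertain. GAPDH, at 79.1, 56.3 and 60.8% of control, lay just outside the limit (log2 fold change -0.64, SE 0.14, edgeR adjusted p = 0.051), and PKM, at 81.9, 92.0 and 77.4%, did not pass (edgeR adjusted p = 0.65). The count of 9 called enzymes was 5 without HIF1A siRNA replicate 2 or 3 or without replicate number 3, and 3 without the block.

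**Figure D3:**
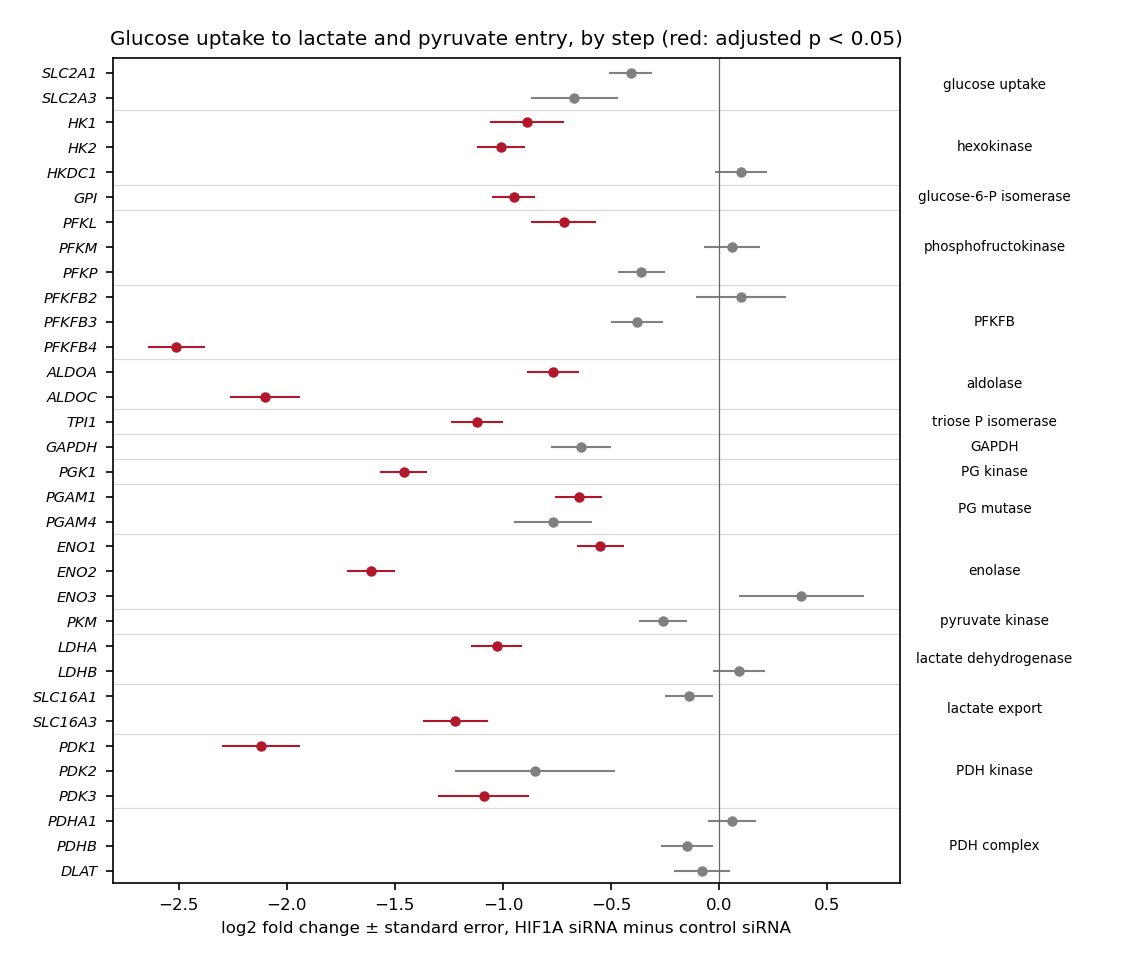
Log2 fold change with its standard error, HIF1A siRNA minus control siRNA, of genes from glucose uptake to lactate export and pyruvate entry, 1 gene per row, with the step named at the right (PG, phosphoglycerate; P, phosphate; PDH, pyruvate dehydrogenase). Red genes passed an adjusted p under 0.05 in edgeR's test; PFKFB4, ALDOC, ENO2, PGK1 and PDK1 lie furthest left, and LDHB, PFKM, HKDC1 and the PDH subunits lie close to zero.

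Of the genes for the fate of pyruvate and lactate 4 of 21 tested fell (LDHA, SLC16A3, PDK1 and PDK3), and the median over the list was -0.03. LDHA, the lactate dehydrogenase subunit linked to lactate production, was at 4318, 4362 and 3390 CPM with control siRNA and at 1995, 2456 and 1524 CPM with HIF1A siRNA (log2 fold change -1.03, SE 0.12, edgeR adjusted p = 0.00033). LDHB was at 104, 114 and 102% of control. SLC16A3, the lactate exporter MCT4, fell from 525, 719 and 561 to 289, 242 and 243 CPM (edgeR adjusted p = 0.00052), whereas SLC16A1 (MCT1), at -0.14, did not pass. PDK1, a kinase that switches off pyruvate dehydrogenase, fell from 115, 68.3 and 71.2 to 20.1, 16.3 and 21.1 CPM (log2 fold change -2.12, SE 0.18, edgeR adjusted p = 3e-05). PDK3, another such kinase, was at 28.6, 65.6 and 54.9% of control, with replicate 1 lowest (edgeR adjusted p = 0.023). Of the dehydrogenase's own subunits PDHA1, PDHB and DLAT none passed.

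In glycogen metabolism 5 of 21 tested genes fell. The synthase GYS1 fell from 142, 132 and 149 to 55.2, 57.7 and 73.8 CPM (log2 fold change -1.19, SE 0.12, edgeR adjusted p = 0.00016) and the branching enzyme GBE1 from 183, 160 and 123 to 64.8, 82.4 and 67.2 CPM (-1.11, SE 0.14). The scaffold PPP1R3C, which brings protein phosphatase to glycogen, was at 33.3, 50.2 and 45.6% of control, and PGM1, which links glycogen to glucose-6-phosphate, at 44.8, 60.1 and 57.2%. STBD1, a glycogen-binding protein, was at 48.0, 65.5 and 57.1%. The phosphorylases that release glucose did not pass, with PYGB at -0.09 and PYGL at -0.39. In all, 17 of the 21 were below zero, with a median of -0.39, and the count of 5 was 3 without HIF1A siRNA replicate 1 or replicate number 3, and 2 without the block. The pentose phosphate pathway, the other branch from glucose-6-phosphate, had no call among 8 genes by edgeR or DESeq2 (1 at an unadjusted p under 0.05), with a median of -0.01.

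The mitochondrial genes split into a few strong falls and large groups without a call. BNIP3, a mitophagy receptor of the outer membrane, was at 753, 754 and 517 CPM with control siRNA and at 155, 140 and 107 CPM with HIF1A siRNA, between 18.6 and 20.8% of control (log2 fold change -2.33, SE 0.11, edgeR adjusted p = 1.3e-07). Its relative BNIP3L went from 383, 298 and 309 to 95.5, 99.2 and 92.2 CPM (log2 fold change -1.78, SE 0.13, edgeR adjusted p = 8.3e-06). The other 39 tested mitophagy and autophagy genes, PHB2 and SQSTM1 among them, had no call. NDUFA4L2, a paralog of a cytochrome oxidase subunit, varied between the control libraries (372, 677 and 202 CPM) and was lower in each pair (152, 156 and 38.7 CPM, log2 fold change -1.93, SE 0.22). FAM162A was at 31.9, 24.9 and 27.7% of control. The matrix protease LONP1 (74.7, 60.8 and 72.3%) and the nucleotide carrier SLC25A36 also fell. The count of 4 in this group was 2 without any 1 of the HIF1A siRNA libraries, without control replicate 3 and without replicate number 3, and 0 without the block.

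For the machinery of respiration no change passed the test. None of 20 TCA cycle genes, 77 respiratory chain and ATP synthase subunits and 74 mitochondrial ribosomal proteins was called in either direction by edgeR or DESeq2, and their median log2 fold changes were 0.04, 0.11 and 0.09. Among these, 1, 1 and 5 genes had an unadjusted p under 0.05 in the higher direction, and 1 respiratory subunit in the lower direction. The share of counts of the respiratory list was 0.945, 1.14 and 0.785% with control siRNA and 1.22, 1.15 and 0.818% with HIF1A siRNA, higher in each pair although the groups overlapped. Log2 fold changes below zero were found for 5 of the 20, 8 of the 77 and 10 of the 74 genes. Cytosolic ribosomal proteins, at 3.98, 5.19 and 3.49% against 5.47, 5.35 and 3.61%, were also higher in each pair, with 3 of 82 genes below zero and a median of 0.15, and no gene was called by either tool or had an unadjusted p under 0.05. For the TCA cycle the shares were 0.240, 0.227 and 0.231% with control siRNA and 0.254, 0.250 and 0.246% with HIF1A siRNA, without overlap. All these shares are of total counts without the TMM factors, which were 0.997, 0.99 and 0.98 with control siRNA. With HIF1A siRNA the factors were 1.02, 1.01 and 1.02, so that scaling by them would narrow these differences. With the factors as given, the order within pairs turned for replicate 2 of the respiratory list and replicate 3 of the ribosomal list. For these lists, higher in each pair therefore holds for the unscaled shares only. The gap for the TCA cycle was not tested after scaling.

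**Figure D4:**
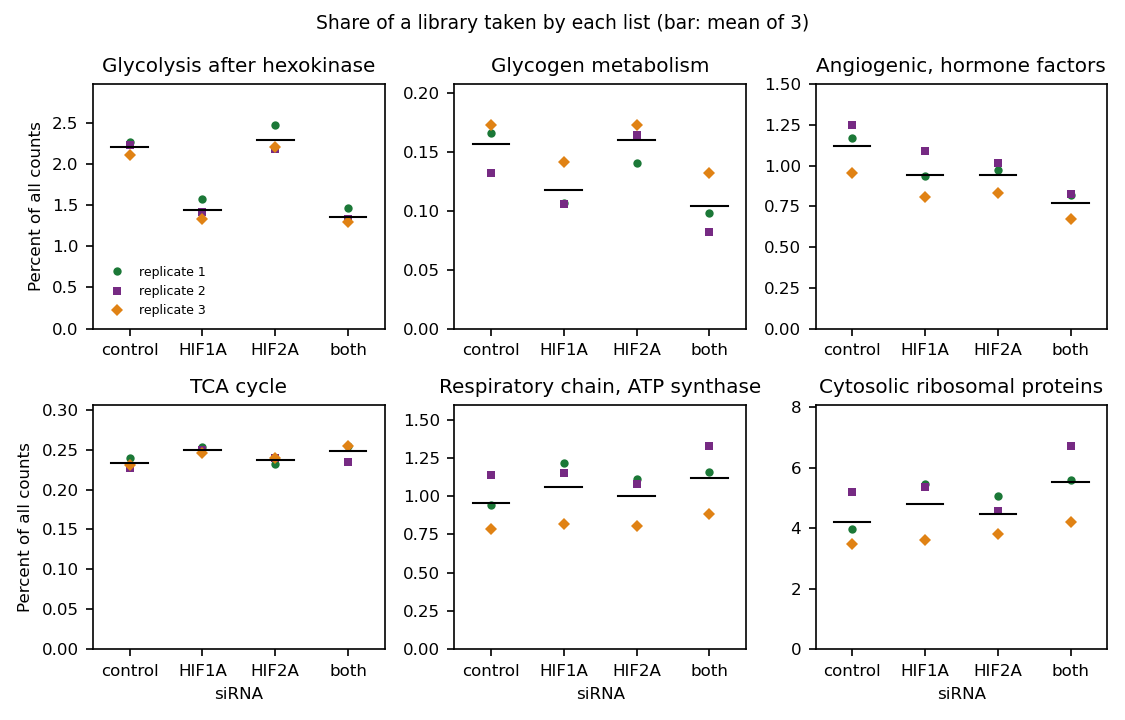
Percent of all counts of a library taken by 6 gene lists, by siRNA group, with 1 symbol per replicate number and a bar at the mean of 3; the y axes start at 0. Glycolysis is lower in the 3 libraries with HIF1A siRNA and the 3 of the double knockdown than in any other library, and the respiratory and ribosomal shares overlap between the control and HIF1A siRNA groups.

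Acid handling was represented by CA9 and SLC4A8. CA9, the carbonic anhydrase at the cell surface that is used as a marker of hypoxia and of ccRCC, was at 252, 283 and 144 CPM with control siRNA and at 26.2, 20.7 and 9.15 CPM with HIF1A siRNA, or 10.6, 7.48 and 6.70% of control (log2 fold change -3.64, SE 0.17, edgeR adjusted p = 1.3e-07). Its paralog CA12 was at 72.1, 85.9 and 59.2% of control and did not pass (log2 fold change -0.49, edgeR adjusted p = 0.2). SLC4A8, a bicarbonate transporter, fell by 1.10 (SE 0.24, edgeR adjusted p = 0.046). The other 17 tested members of the list had no call.

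Of the enzymes that modify collagen 4 of 21 tested fell, with a median over the list of -0.10. LOX, which cross-links collagen, fell from 179, 178 and 112 to 56.2, 60.8 and 42.1 CPM (log2 fold change -1.55, SE 0.14, edgeR adjusted p = 3.3e-05). P4HA1, a prolyl hydroxylase of collagen, fell from 188, 195 and 221 to 73.9, 97.4 and 106 CPM (-1.14, SE 0.14), and its paralog P4HA2 was at 57.9 to 67.2% of control. The lysyl hydroxylase PLOD2 was at 37.8, 58.2 and 51.6% of control, whereas PLOD1 (-0.34) and PLOD3 (-0.04) did not pass. None of 21 collagen chains was called by edgeR, with 5 at an unadjusted p under 0.05 in the lower direction and 1 called lower by DESeq2, and their median was -0.12.

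The list of angiogenic, vasoactive and hormone factors had 10 of 40 tested members called lower, with a median of -0.34, and 1 of them, FGF11, is a protein kept inside cells. VEGFA, the main angiogenic factor of ccRCC, was at 249, 260 and 194 CPM with control siRNA, 130, 160 and 118 CPM with HIF1A siRNA, and 157, 165 and 118 CPM with HIF2A siRNA. It was called lower with HIF1A siRNA (log2 fold change -0.79, SE 0.11, edgeR adjusted p = 0.0025), and HIF1A siRNA minus HIF2A siRNA gave -0.11 (SE 0.11, edgeR adjusted p = 0.79). ADM, the vasodilator adrenomedullin, had the same arrangement (-0.92 against control and -0.06 between the siRNAs), and its groups overlapped because replicate 3 was low throughout. The vessel peptide APLN was different, at 49.5, 44.2 and 23.8 CPM with control siRNA, 7.42, 5.90 and 5.94 CPM with HIF1A siRNA and 53.3, 33.5 and 25.6 CPM with HIF2A siRNA.

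The other called members of the list were FGF11, NRN1, NXPH4, EFNA3, STC1, STC2 and NMU. FGF11, a fibroblast growth factor homolog, was at 17.7, 18.3 and 26.1% of control (log2 fold change -2.38, SE 0.16, edgeR adjusted p = 6.6e-06). NRN1 (neuritin) was at 14.0, 19.7 and 27.8%, NXPH4 (neurexophilin) at 37.5, 24.9 and 13.6%, and EFNA3, an ephrin, at 34.4, 14.6 and 32.6%. The calcium- and phosphate-regulating glycoproteins STC1 and STC2 had log2 fold changes of -2.19 (SE 0.17) and -0.70 (SE 0.12). NMU (neuromedin U) was scarce, at 2.14, 5.22 and 0.806 CPM with control siRNA and 0.318, 0.503 and 0.243 CPM with HIF1A siRNA, and lost its call without any 1 of the control or HIF1A siRNA libraries. EDN1 and ANGPTL4, at -0.62 and -0.76, did not pass. The count of 10 was 6 without HIF1A siRNA replicate 2 or replicate number 3, and 3 without the block.

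Among the genes of oxygen sensing, EGLN3 fell and EGLN1, EGLN2, HIF1AN and VHL did not pass. EGLN3 was at 91.3, 102 and 87.5 CPM with control siRNA and at 55.9, 64.6 and 47.2 CPM with HIF1A siRNA (log2 fold change -0.75, SE 0.12, edgeR adjusted p = 0.007). EGLN1, the main HIF prolyl hydroxylase, was lower in each pair, at 57.6, 78.5 and 81.3%, without passing (edgeR adjusted p = 0.13). Of the oxygen-dependent histone demethylases, KDM4B (54.2, 42.7 and 53.5% of control) and KDM3A (44.1, 67.8 and 52.9%) fell, 2 of 26 tested. None of 12 ALKBH, FTO and TET enzymes, which use oxygen on nucleic acids, was called by edgeR, with 2 at an unadjusted p under 0.05 in the lower direction, 1 in the higher, and 1 called lower by DESeq2.

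Transcription factors of other circuits were few but included large changes. RORA, a nuclear receptor of the circadian loop, went from 17.3, 11.5 and 9.79 to 2.49, 1.44 and 1.90 CPM (log2 fold change -2.70, SE 0.24, edgeR adjusted p = 3.2e-05). BHLHE41 (DEC2), a repressor of the clock, was at 46.2, 65.7 and 46.5% of control, and C1orf51 (CIART), a further clock repressor, at 75.2, 35.9 and 35.7%. BHLHE40, the paralog of BHLHE41, did not pass (-0.36, edgeR adjusted p = 0.28), nor did the other members of the list. MXI1, which competes with MYC for MAX, was at 45.3, 56.8 and 61.4% of control (edgeR adjusted p = 0.0035), and MYC itself was not called (-0.12, SE 0.13).

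In lipid metabolism the calls were on single genes. INSIG2, which holds back sterol synthesis, fell from 60.5, 53.5 and 53.6 to 14.0, 21.4 and 20 CPM (log2 fold change -1.60, SE 0.17, edgeR adjusted p = 0.00022). SCD, the desaturase of fatty acids, was at 31.9, 52.2 and 71.3% of control (edgeR adjusted p = 0.013), and the other 35 tested genes of sterol and fatty acid synthesis, ACLY among them, had no call. HILPDA, an inhibitor of lipolysis on lipid droplets, was at 42.1, 37.9 and 40.7% of control (-1.34, SE 0.13, edgeR adjusted p = 0.0001). PLIN2, the droplet coat protein, was not called (-0.20, SE 0.12).

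Genes of amino acid supply, protein folding and adenine nucleotides gave a small number of falls each. DDIT4 (REDD1), an inhibitor of TORC1 listed with the ATF4 genes, was at 41.7, 34.2 and 51.1% of control (log2 fold change -1.25, SE 0.15, edgeR adjusted p = 0.00045). SHMT2, the mitochondrial serine hydroxymethyltransferase, fell from 426, 437 and 425 to 262, 237 and 202 CPM (-0.88, SE 0.11), and GPT2, a transaminase, was at 55.7 to 62.4%. ATF4 itself (-0.18) and the other 23 tested genes of that list had no call. In the list of endoplasmic reticulum folding genes the oxidases ERO1L (38.7, 57.3 and 53.1% of control) and QSOX1 (58.8, 55.5 and 54.6%) fell. The translocon subunit SEC61G (62.9 to 74.6%) fell as well, and none of the chaperones HSPA5, HSP90B1, CALR and CANX passed. AK4, a mitochondrial adenylate kinase, fell from 568, 478 and 504 to 210, 225 and 219 CPM (-1.24, SE 0.12, edgeR adjusted p = 6.3e-05).

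By edgeR no gene was called in the lists of DNA replication (45 tested, median 0.05), mitosis (36, median 0.01), G1 control (19, median -0.02), NRF2 targets (18), iron handling (13), AMPK and TORC1 signalling (22, median -0.07), NF-κB response (17), cadherins and mesenchymal factors (15), kidney lineage genes (11, median 0.17) and fibroblast markers (5). Each had at most 4 genes at an unadjusted p under 0.05 in the lower and at most 2 in the higher direction, and DESeq2 called 2 genes lower in the AMPK and TORC1 list and 0 in the others. Interferon-stimulated genes, which some siRNAs raise, had no call among 35 by either tool (2 at an unadjusted p under 0.05, both higher), with a median of 0.23, and took 0.190, 0.167 and 0.127% of counts with control siRNA and 0.304, 0.148 and 0.154% with HIF1A siRNA, so that replicate 1 was the high library. TP53I11 was the single call among 21 p53 targets (-0.81, SE 0.17, edgeR adjusted p = 0.038). The epithelial mucin MUC1 fell by 1.24 (SE 0.16, edgeR adjusted p = 0.00094), and the keratins and EPCAM on the same list did not pass.

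The 83 called genes in no list were grouped by known role after their values had been seen, which placed 51 of them. Tested genes of each role were not counted, so that these groups only describe the calls and have no share to compare. The groups were 11 kinases, phosphatase subunits, adaptors and scaffolds, 11 transcription and chromatin factors, 6 small GTPases and their regulators, 6 surface and secreted proteins, 5 transporters and channels, 5 glycan and glycolipid anchor enzymes, 4 other metabolic enzymes and 3 ubiquitin ligase components. PPFIA4, a liprin scaffold protein of synapses, fell from 106, 86.3 and 58.3 to 6.20, 6.69 and 5.11 CPM (log2 fold change -3.76, SE 0.16, edgeR adjusted p = 1.3e-07). RIMKLA, which joins N-acetylaspartate to glutamate, was at 10.5, 21.8 and 9.48% of control. The endosomal GTPase RAB20 fell by 1.88 (SE 0.15) and KSR1, a scaffold of the MAP kinase cascade, by 2.19 (SE 0.40), while MAP2K1, the kinase of that cascade, fell by 0.73 (SE 0.11).

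Other falls in this set concerned sugars on proteins and the surface of cells. FUT11, a fucosyltransferase, fell by 1.61 (SE 0.23, edgeR adjusted p = 0.0025), MPI, which feeds mannose into glycan synthesis, by 1.05 and CHSY1, a chondroitin synthase, by 0.66. PIGA and PIGH, partners in the first step of GPI anchor synthesis, fell by 0.79 and 1.14. SERPING1, the C1 inhibitor of complement, fell by 1.78 (SE 0.19), the creatine transporter SLC6A8 by 0.66 and the glutamate transporter SLC1A1 by 0.75. ZNF395, a zinc finger protein, went to 181 ± 6.27 CPM from 402 ± 22.3 CPM (SD, n = 3, log2 fold change -1.14). MIR210HG, the host transcript of a hypoxia-linked microRNA, went from 30.5, 38.3 and 15.1 to 6.36, 4.96 and 2.97 CPM (edgeR adjusted p = 1.1e-05). For 2 genes a library with HIF1A siRNA held no reads: CCDC64B had 78, 196 and 53 counts in the control libraries and 0, 1 and 0 with HIF1A siRNA, and FAM153C had 22, 39 and 11 against 1, 0 and 1. FAM153C has near-identical copies, so that its counts are uncertain.

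Only CD99, CYP27A1, HAS3 and LIPC were called higher. CD99, a surface glycoprotein, was at 1.78, 2.56 and 2.79 CPM with control siRNA and at 23.2, 73.5 and 24.4 CPM with HIF1A siRNA (log2 fold change 3.91, SE 0.30, edgeR adjusted p = 1e-05). It lies in a region shared by the sex chromosomes, so that its counts are uncertain. In the double knockdown it was at 25.7, 2.03 and 24.1 CPM, so that replicate 2, the highest with HIF1A siRNA, was near control there. CYP27A1, a sterol hydroxylase, was at 219, 175 and 162% of control, HAS3, a hyaluronan synthase, at 142 to 179%, and LIPC, hepatic lipase, at 159, 142 and 154%. CYP27A1, HAS3 and LIPC each lost the call when any 1 of the HIF1A siRNA libraries was left out, and CD99 kept it in every alternative fit. The count of 4 was 1 without the block, 1, 2 and 1 without HIF1A siRNA replicates 1, 2 and 3, 8 and 18 without control replicates 1 and 2, 13 without HIF2A siRNA replicate 2, and 23 and 1 without replicate numbers 2 and 3.

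The same siRNA was also given to cells depleted of HIF-2α. The 3 libraries of the double knockdown did not enter the fit behind the calls above, whereas the 3 with HIF2A siRNA did, as part of its estimates of spread and replicate effects (without HIF2A siRNA replicate 2 that fit called 206 genes lower). The double knockdown was compared with HIF2A siRNA in a fit of all 12 libraries, in which 418 of 13000 genes were called lower (3.22%) and 102 higher (0.785%). All 146 genes had a log2 fold change below zero in this second comparison, against 49.3% of all genes tested, and 140 were called lower. Their median log2 fold change was -1.24 there and -1.10 in the first comparison, with 113 genes further from zero in the second. The 6 genes not called lower there were FAM153C, NMU, ANKRD37, GJA3, PIGH and LOC729852, named after their values were seen, and 3 of them had adjusted p values of 0.076, 0.054 and 0.055 by edgeR (NMU, ANKRD37 and PIGH). Of the genes called higher all 4 were above zero and 2, LIPC and HAS3, were called. Without the replicate block 70 of the 146 were called lower in the second comparison, and between 104 and 133 when a replicate number was left out.

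**Figure D5:**
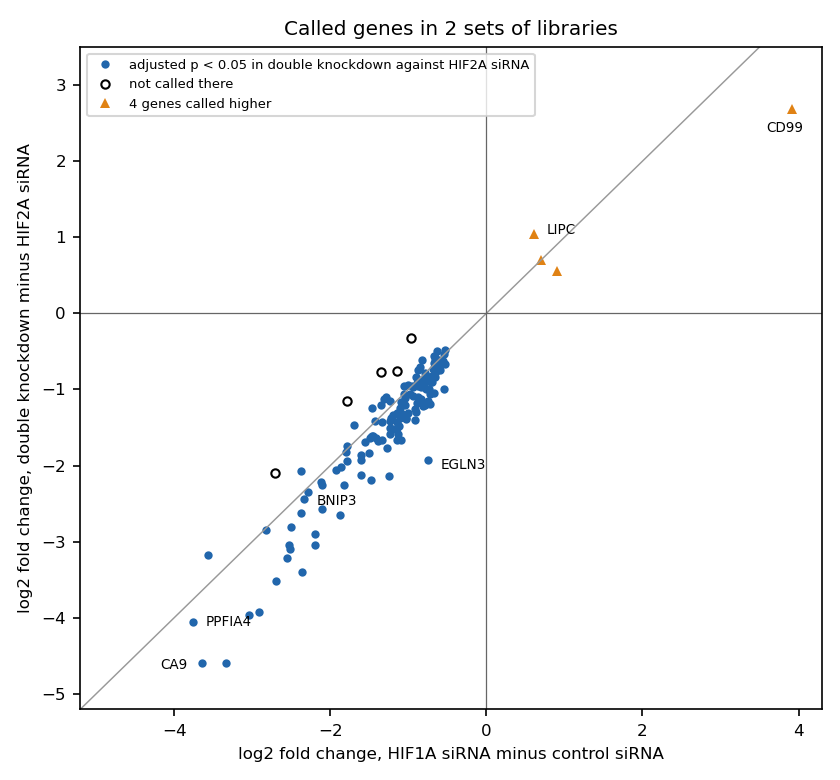
Log2 fold change with HIF1A siRNA minus control siRNA (x axis) and with the double knockdown minus HIF2A siRNA (y axis) for 144 genes called lower and 4 called higher in the first comparison; the grey line marks equal values. Filled circles were also called lower in the second comparison by edgeR, open circles were not, triangles are the genes called higher, and 2 genes without reads in a library with HIF1A siRNA are left out; all points lie in the same quadrant as their call, most of them below the line.

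The difference between the effects of HIF1A siRNA with and without HIF2A siRNA was tested directly as an interaction, and edgeR called 0 of 13000 genes, with 318 at an unadjusted p under 0.05. The smallest adjusted p among the 146 genes was 0.065, for EGLN3. With HIF2A siRNA it was at 71.6, 94.3 and 80.0 CPM and in the double knockdown at 24.1, 25.1 and 16.0 CPM, a log2 fold change of -1.93 (SE 0.13) against -0.75 without HIF2A siRNA. SLC2A1 and CA12, which were not called with HIF1A siRNA alone, had the same adjusted p of 0.065 in edgeR's interaction test. SLC2A1 went from 940, 935 and 935 CPM with HIF2A siRNA to 429, 357 and 349 CPM in the double knockdown (log2 fold change -1.31, SE 0.10), and CA12 from 60.1, 76.0 and 36.0 to 21.4, 24.0 and 10.2 CPM (-1.65, SE 0.13). For BNIP3, GPI, HK2 and KDM3A the interaction was between -0.11 and 0.07 on the log2 scale. For CA9 and DDIT4 it was -0.94 (SE 0.21) and -0.89 (SE 0.18), without passing (edgeR adjusted p = 0.54 and 0.46).

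The siRNAs were also compared with each other, in the fit that gave the calls above and with the same HIF1A siRNA libraries, so that this comparison is not independent of them. Of 12830 genes, 158 were called lower with HIF1A siRNA in that contrast (1.23%). For CA9 the log2 fold change between the siRNAs was -4.08 (SE 0.17), for PDK1 -2.35 (SE 0.18) and for KDM4B -1.25 (SE 0.15), each with an adjusted p under 0.05 by edgeR. RASSF2, an inhibitor of RAS signalling, and C10orf10 and C15orf48 were called lower against control (-0.66, -0.90 and -0.75) and had values of -0.10, 0.16 and 0.03 between the siRNAs, none of which passed. SLC2A1 was at 940, 935 and 935 CPM with HIF2A siRNA, below its 1215, 1165 and 1150 CPM with HIF1A siRNA, and this difference of 0.32 (SE 0.10) did not pass either (edgeR adjusted p = 0.2).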

How the data were processed

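RNA-seq libraries of RCC4 cells were grouped by their sample labels, 3 per siRNA condition. The authors trimmed adaptors with Trim Galore, aligned reads to hg19 with HISAT2, used Picard to discard fragments with several matches and counted the rest per gene with HTSeq, and deposited raw counts for 23106 symbols per library. The library kit keeps strand, but whether strand was used in counting is not given in the sources used here, so that counts of overlapping and antisense genes are uncertain, as are those of near-identical copies.

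From the deposited counts, edgeR (version 4.0.16, R 4.3.3) was run with TMM normalization, filterByExpr (10 counts, total of 15), the replicate number as a block, glmQLFit and glmQLFTest, and Benjamini-Hochberg adjustment, on 9 libraries, all but the double knockdown. Called means an adjusted p under 0.05. The double knockdown and the interaction were fitted with all 12 libraries. CPM used total counts times TMM factors, and ratios within pairs used CPM plus 0.5. The scripts were tested on simulated data. DESeq2 (version 1.42.0) was an alternative, and others were DESeq2 size factors, library totals, no filter, 10 counts in every library, no block, 6 or 12 libraries and leaving out each library or replicate number.

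The study's methods paired conditions by biological replicate; same-numbered control and HIF1A siRNA libraries deviated together (r = 0.147, 0.523 and 0.768 across 12830 genes, against -0.71 to 0.496 for different numbers, the highest being control replicate 2 with HIF1A siRNA replicate 1). The methods state triplicates under ENCODE guidelines but not whether replicates came from separate cultures. If not, p-values measure only the spread between these samples, which may be technical. Replicates differed by more than sampling noise.

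The comparison and the 43 gene lists were chosen with earlier results of these data known. Named genes were HIF1A, EPAS1 and ARNT; in each list up to 3 called genes with the largest change and the same direction in all pairs, and the 2 uncalled members with the highest CPM; the 10 called genes with the highest CPM; the 10 with the largest fall or rise; and the 20 called genes outside the lists with the smallest adjusted p. Other genes in the text were named after their values were seen, to account for list members, paralogs and roles.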

Additional observations from a re-analysis of the deposited data

How the results depend on the processing

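The 146 genes called lower kept their direction in 20 alternative fits. These fits reuse libraries behind the calls, so that a kept direction is not independent support. The fit with 10 counts in every library tested 141 of the 146 genes. Without the replicate block, the paired design being set aside, 40 genes were called lower and 1 higher, and called members were 0 of the hypoxia metagene, 1 of glucose uptake, 3 of glycolysis, 2 of pyruvate fate, 2 of glycogen, 1 of collagen modification, 3 of the angiogenic and hormone factors and 0 of the mitochondrial hypoxia-linked proteins. Also without it, 70 of the called genes were called in the second comparison. DESeq2's test gave 221 lower and 15 higher, no filter gave 11 higher, and all 12 libraries gave 8 higher. ACGTG, with or without GCGTG, was in 57.3% of promoters of genes called lower, by construction no more than with either core. With 1 library or replicate number left out, genes called lower ranged from 65 (without HIF1A siRNA replicate 1) to 206 (without HIF2A siRNA replicate 2) and genes called higher from 1 to 23. Under the same settings, called members ranged from 3 to 10 (hypoxia metagene), 1 to 3 (glucose uptake), 5 to 11 (glycolysis), 3 to 4 (pyruvate fate), 3 to 7 (glycogen), 3 to 4 (collagen modification), 6 to 13 (angiogenic and hormone factors), 2 to 5 (mitochondrial proteins) and 0 (respiratory chain), and calls in the second comparison from 104 to 133. For these settings the cause was not tested, apart from the fewer samples by construction. The effect of depth was not tested, and FAM153C and CCDC64B rest on 0 or 1 counts with HIF1A siRNA. No named gene reversed.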
